A study of Triticum aestivum with 18 samples.

Results

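Alternative oxidase is an enzyme of the inner mitochondrial membrane that takes electrons from ubiquinol and passes them straight to oxygen, so that the proton-pumping complexes III and IV are bypassed and less ATP is made. Its nuclear genes are known as stress genes of the plant mitochondrion, and their transcripts often rise when the cytochrome pathway is blocked. A related enzyme of plastids, the plastid terminal oxidase, oxidises plastoquinol and is needed for carotenoid synthesis. The loci described here were chosen by their names. Of the 94141 loci in the expression table of germinating wheat seeds, 11 carried a description containing "alternative oxidase", and the 10 with the highest mean level over the 18 libraries were kept. The lowest of the kept loci, TraesCS6A02G269100, had a mean of 0.479 FPKM (fragments scaled to the length of the transcript and to the depth of the library), and the 1 locus left out, TraesCS2B02G571700, had 0.454 FPKM. Since the mean level chose the loci, the order of these levels is a description.

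The seeds came from 3 bread wheat varieties that the study ranks by waterlogging tolerance: 'Bainong 607' (BN607, tolerant), 'Bainong 207' (BN207, intermediate) and 'Zhoumai 22' (ZM22, intolerant). In the waterlogged groups (W72_BN607, W72_BN207 and W72_ZM22), seeds lay for 72 h under 10 cm of water before they were set to germinate, and in the control groups (C72_BN607, C72_BN207 and C72_ZM22) they were imbibed for 24 h instead. Every group was sampled after 72 h of germination and has 3 libraries, which the study calls biological replicates. All groups germinated in a chamber at 25 °C with a daily cycle of light and dark. The paper places the waterlogging step in the dark at a constant temperature lower than that. It gives no such conditions for the control step. The treatments thus differ in the time since the seeds were first wetted as well as in submergence, and may differ in light and temperature. These cannot be told apart. RNA from pooled seeds without radicle and coleoptile was sequenced after poly(A) selection, so that fewer cells of a type and less RNA per cell cannot be told apart in any value below.

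The descriptions put 2 of the 10 loci in plastids and leave the compartment of most others open. TraesCS2D02G542600 and TraesCS2A02G541400 are described as alternative oxidase 4 of chloroplasts and chromoplasts, carry a thylakoid term, and are called plastid loci here, as is the locus left out. Of the other 8, only TraesCS2A02G438300 is named as mitochondrial (alternative oxidase 1a), and the rest are described as alternative oxidase with no compartment. Of the 10 loci 6 also carry the gene ontology term for alternative oxidase activity, which TraesCS2A02G438300 and the group 6 loci lack. The 8 non-plastid loci fall into 3 sets by chromosome. The group 2 set holds MSTRG.10640 (TraesCS2D02G436700, 2D 547250088 to 547252506, plus strand), MSTRG.8612 (TraesCS2B02G459300, 2B 653745832 to 653748302, plus strand), MSTRG.6572 (TraesCS2A02G439400, 2A 690738032 to 690740377, plus strand) and MSTRG.6570 (TraesCS2A02G438300, 2A 689709322 to 689710689, minus strand). The group 6 set holds MSTRG.31006 (TraesCS6D02G245800, 6D 348028901 to 348030843), TraesCS6B02G296400 (6B 532150706 to 532152010) and TraesCS6A02G269100 (6A 495463848 to 495465714). A single locus described as partial, TraesCS4B02G272200, lies at 4B 548863051 to 548863659. The plastid loci are MSTRG.10951 (TraesCS2D02G542600, 2D 621063729 to 621066864) and TraesCS2A02G541400 (2A 752867479 to 752871351). All positions are on IWGSC RefSeq v1.0. The A, B and D copies of a wheat gene are near-identical, so reads could be split between loci of a set, and values for single copies are uncertain to that extent.

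Some facts of the libraries bear on what follows. Estimated counts summed to between 68.75 M and 107.71 M per library. In the library labelled W72_BN207 replicate 1, none of the BN207 marker loci was found (0 of 61, those at 1 FPKM or more in each other library of that variety and at most 0.1 FPKM in each library of the rest), and all those of BN607 were (92 of 92), counting levels above 0.5 FPKM. The other 17 libraries held 85.2% to 100% of the marker loci of the variety on their label, and never over 1.05% of those of a different variety. By these marker loci the library labelled W72_BN207 replicate 1 matched BN607 and not BN207. It was kept under its label, and the contrasts that involve BN207 were fitted again without it. The BN207 levels, means and counts below include it unless they are given without it. A locus was tested where it reached 1 FPKM in at least 3 libraries, which left 50656 loci and 9 of the 10 alternative oxidases. TraesCS6A02G269100 reached 1 FPKM in only 2 libraries and was not tested.

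The alternative oxidases were expressed at low to middling levels, and what set libraries apart was the group 2 set. Means over the 18 libraries were 4.18 FPKM for TraesCS2D02G436700, 3.66 for TraesCS2A02G438300, 3.12 for TraesCS4B02G272200, 3.04 for TraesCS2D02G542600, 2.71 for TraesCS2B02G459300, 2.31 for TraesCS2A02G541400 and 2.13 for TraesCS2A02G439400. The group 6 loci followed at 0.831 (TraesCS6D02G245800), 0.599 (TraesCS6B02G296400) and 0.479 FPKM (TraesCS6A02G269100). The highest of these means lay above those of 77.5% of all loci in the table and the lowest above those of 44.1%. For the leading group 2 loci the mean hides most of the pattern, since the median library had 1.39 FPKM of TraesCS2D02G436700 and 0.241 FPKM of TraesCS2A02G438300.

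**Figure D1:**
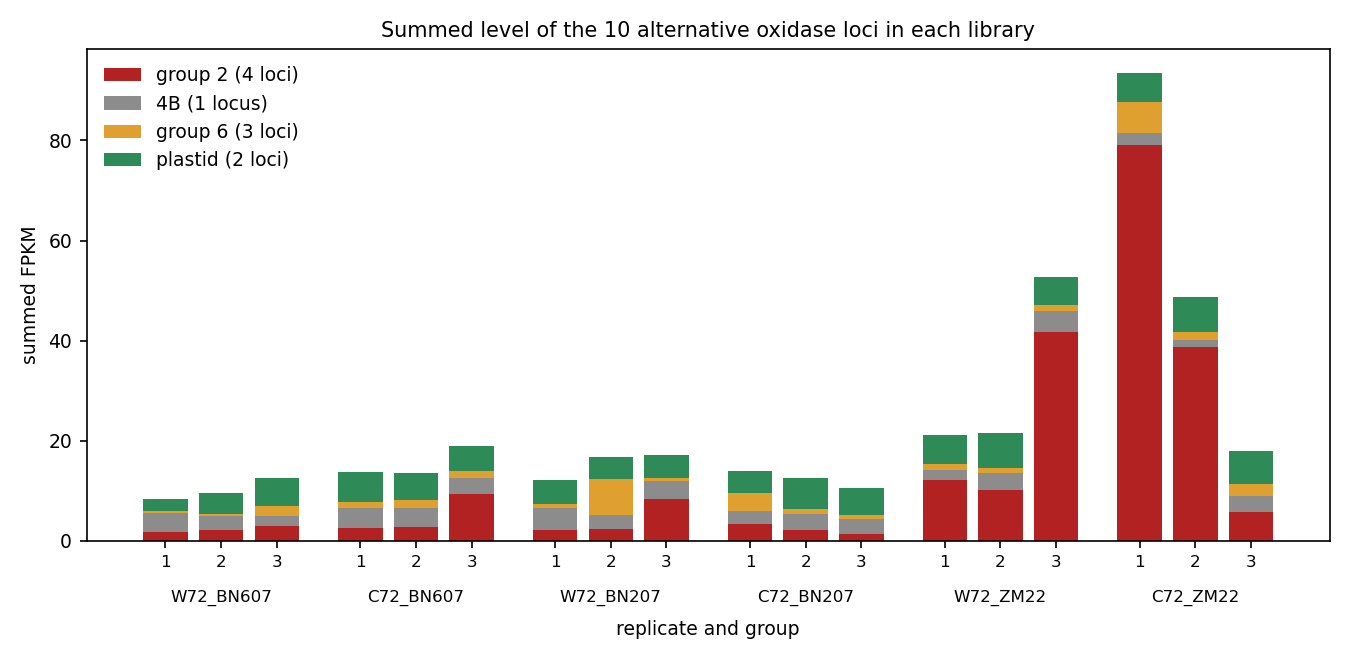
Summed FPKM of the 10 alternative oxidase loci in each of the 18 libraries, stacked by set (group 2, 4B, group 6 and plastid), with replicates 1 to 3 side by side in each group. The group 2 set (red) stayed at or below 9.29 FPKM in every BN607 and BN207 library and reached 79.1 FPKM in C72_ZM22 replicate 1, while the plastid sum stayed between 2.40 and 6.98 FPKM.

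Summed over the 4 loci, the group 2 set ran between 1.36 and 9.29 FPKM in the 12 libraries of BN607 and BN207. It stood at 12.1, 10.1 and 41.6 FPKM in W72_ZM22 and at 79.1, 38.6 and 5.69 FPKM in C72_ZM22. Thus 5 of the 6 ZM22 libraries lay above all others, and C72_ZM22 replicate 3 lay among them. Its share of the summed level of the 8 non-plastid loci was 19.6% to 66.8% in BN607 and BN207 libraries and 50.7% to 92.7% in ZM22 libraries. Within BN607 and BN207 the highest sums were those of C72_BN607 replicate 3 (9.29 FPKM) and W72_BN207 replicate 3 (8.24 FPKM).

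TraesCS2B02G459300 separated ZM22 from the other varieties without overlap. Levels in BN607 were 0.348, 0.186 and 0.690 FPKM under waterlogging and 0.421, 0.516 and 0.790 FPKM under control. Those in BN207 were 0.522, 0.212 and 0.203 FPKM under waterlogging and 0.0828, 0.395 and 0.254 FPKM under control. In ZM22 the locus was at 2.32, 3.65 and 5.78 FPKM under waterlogging and at 19.1, 10.3 and 2.99 FPKM under control. All 6 ZM22 libraries lay above all 12 libraries of the other varieties, and the locus reached 1 FPKM in no library outside ZM22. It passed the filter on low values through ZM22 alone, and its mean level among the chosen loci also came from ZM22.

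TraesCS2D02G436700, the locus with the highest mean, showed the same lead of ZM22 with overlap. In BN607 it had 0.619, 1.13 and 1.38 FPKM under waterlogging and 1.39, 1.38 and 4.48 FPKM under control. In BN207 it had 0.923, 0.750 and 4.0 FPKM under waterlogging and 1.45, 0.975 and 0.603 FPKM under control. In ZM22 it had 5.31, 4.34 and 6.94 FPKM under waterlogging and 25.0, 13.4 and 1.23 FPKM under control. Of the ZM22 libraries 4 lay above every other library, and C72_ZM22 replicate 3 was exceeded by 6 of the 12 others.

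TraesCS2A02G438300, the alternative oxidase 1a, had the widest range of the 10 loci, from 0 to 24.8 FPKM. In BN607 it was at 0.107, 0 and 0.0545 FPKM under waterlogging and at 0.148, 0.181 and 0.85 FPKM under control. In BN207 it was at 0.0402, 0.0782 and 0.632 FPKM under waterlogging and at 1.13, 0 and 0.0513 FPKM under control. In ZM22 it was at 3.81, 1.07 and 22.7 FPKM under waterlogging and at 24.8, 9.87 and 0.30 FPKM under control. Outside ZM22 the locus reached 1 FPKM only in C72_BN207 replicate 1. Its spread within groups was also the widest, with a biological coefficient of variation of 1.44, against a median of 0.475 over all tested loci.

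TraesCS2A02G439400, from the same stretch of chromosome 2A, was less tied to the variety. In BN607 it had 0.563, 0.781 and 0.763 FPKM under waterlogging and 0.502, 0.674 and 3.17 FPKM under control. In BN207 it had 0.708, 1.36 and 3.41 FPKM under waterlogging and 0.606, 0.799 and 0.455 FPKM under control. In ZM22 it had 0.675, 1.09 and 6.23 FPKM under waterlogging and 10.2, 5.10 and 1.17 FPKM under control. The 3 highest libraries were of ZM22, and the next were W72_BN207 replicate 3 and C72_BN607 replicate 3, which also had the most TraesCS2D02G436700 within their varieties.

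**Figure D2:**
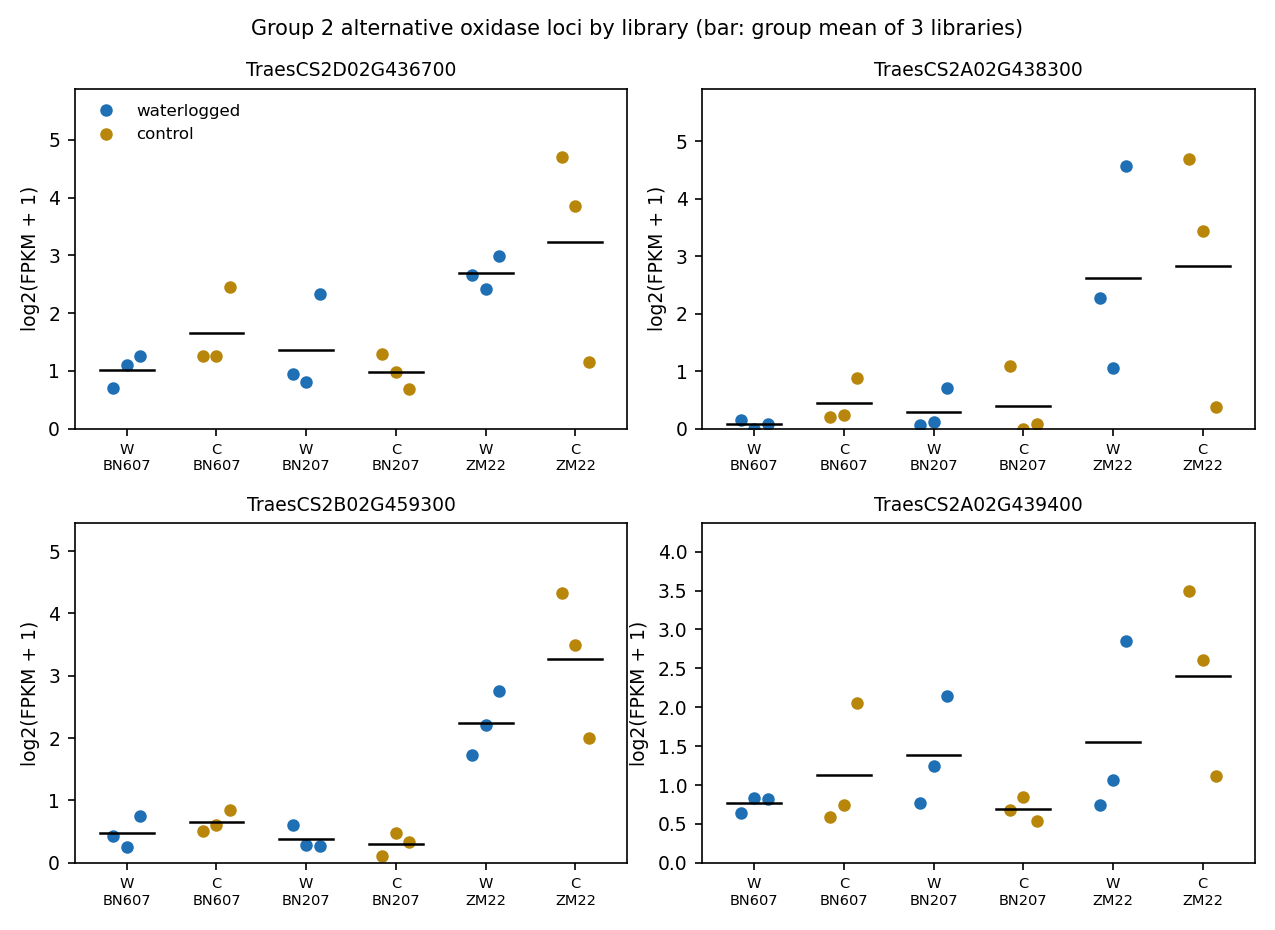
Level of each group 2 alternative oxidase locus as log2(FPKM + 1), with 1 point per library, blue for waterlogged and ochre for control, and a bar at the mean of the plotted values of the 3 libraries. For TraesCS2B02G459300 the 12 BN607 and BN207 points (at most 0.790 FPKM) lie below all 6 of ZM22 (2.32 to 19.1 FPKM), and for the other loci C72_ZM22 replicate 3 falls among the BN607 and BN207 libraries.

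The group 2 loci went up and down together from library to library. Over the 18 libraries the Pearson correlation of log2(FPKM + 1) between 2 of the 4 loci lay between 0.761 (TraesCS2B02G459300 with TraesCS2A02G439400) and 0.901 (TraesCS2D02G436700 with TraesCS2A02G438300). Within the 6 ZM22 libraries it lay between 0.757 and 0.925. Within the 12 libraries of BN607 and BN207, TraesCS2D02G436700 kept a correlation of 0.861 with TraesCS2A02G439400 and 0.708 with TraesCS2A02G438300, while TraesCS2B02G459300 had values between -0.128 and 0.283 with the other 3. The points share their libraries and hence depth and tissue make-up, and near-identical copies can share reads, so these values describe the table only.

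The 4B and plastid loci were steadier. TraesCS4B02G272200 was between 1.96 and 4.4 FPKM in the 12 libraries of BN607 and BN207, against 1.95, 3.31 and 4.21 FPKM in W72_ZM22 and 2.27, 1.58 and 3.32 FPKM in C72_ZM22. TraesCS2D02G542600, a plastid locus, ran between 1.70 and 4.01 FPKM in BN607 and BN207 and between 2.93 and 3.87 FPKM in ZM22. Neither locus had a group of libraries that stood clear of the rest. The other plastid locus, TraesCS2A02G541400, did set BN607 apart from ZM22. It was at 0.70, 1.39 and 2.03 FPKM in W72_BN607 and at 1.87, 2.04 and 1.76 FPKM in C72_BN607, against 2.81, 3.30 and 2.76 FPKM in W72_ZM22 and 2.25, 3.10 and 3.54 FPKM in C72_ZM22. All 6 BN607 libraries lay below all 6 of ZM22, whereas BN207 (1.74 to 3.20 FPKM) overlapped both.

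The group 6 set was low in most libraries and peaked in a pair of them. W72_BN207 replicate 2 had 3.56 FPKM of TraesCS6D02G245800, 1.91 FPKM of TraesCS6B02G296400 and 1.67 FPKM of TraesCS6A02G269100. W72_BN207 replicates 1 and 3 had 0.460 and 0.206 FPKM of TraesCS6D02G245800, and C72_BN207 had 1.38, 0.828 and 0.672 FPKM. C72_ZM22 replicate 1 had the most TraesCS6B02G296400 (2.66 FPKM) and TraesCS6A02G269100 (2.55 FPKM) of all 18 libraries, with 1.10 FPKM of TraesCS6D02G245800. That library also had the most group 2 transcript, while W72_BN207 replicate 2 had little of it (2.40 FPKM summed). Within the 12 libraries of BN607 and BN207 the correlations between the group 6 loci were 0.811 to 0.873. Among the group 6 loci no group of libraries stood apart from all others.

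**Figure D3:**
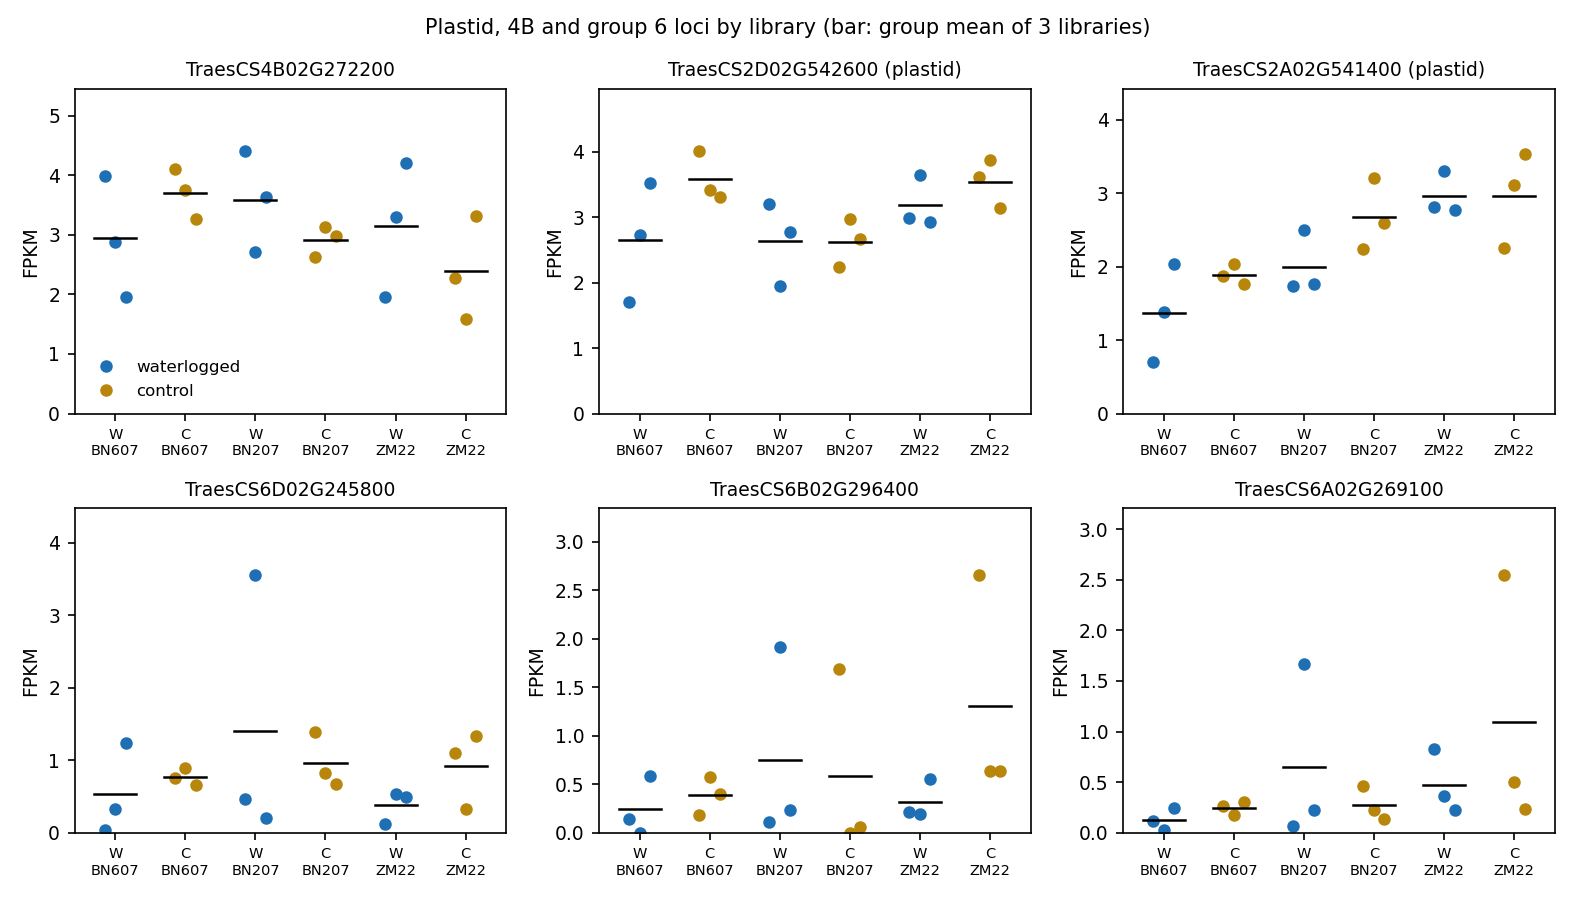
Level in FPKM of the 4B, plastid and group 6 loci, with 1 point per library, blue for waterlogged and ochre for control, and a bar at the mean of the 3 libraries. The plastid locus TraesCS2A02G541400 lies between 0.70 and 2.04 FPKM in BN607 and between 2.25 and 3.54 FPKM in ZM22, and the group 6 maxima are single libraries (W72_BN207 replicate 2 and C72_ZM22 replicate 1).

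When the 6 groups were ordered by mean level, ZM22 groups led for the group 2 loci. TraesCS2B02G459300 averaged at most 0.575 ± 0.192 FPKM outside ZM22 (C72_BN607), against 3.92 ± 1.74 FPKM in W72_ZM22 and 10.8 ± 8.07 FPKM in C72_ZM22 (SD, n = 3 each), and the step between C72_BN607 and W72_ZM22 was the only one in the 10 orders at which neighbouring groups did not overlap. TraesCS2D02G436700 averaged at most 2.42 ± 1.79 FPKM outside ZM22 (C72_BN607), 5.53 ± 1.31 FPKM in W72_ZM22 and 13.2 ± 11.9 FPKM in C72_ZM22. TraesCS2A02G438300 averaged at most 0.395 FPKM outside ZM22, 9.19 ± 11.8 FPKM in W72_ZM22 and 11.7 ± 12.4 FPKM in C72_ZM22. All neighbours in the orders of the other 9 loci overlapped.

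Whether waterlogging changed the alternative oxidases was asked within each variety, by edgeR's quasi-likelihood test fitted to all 50656 loci with Benjamini-Hochberg adjustment. No locus of the family passed the test. In BN607, 0 of 9 were called, against 0% of all tested loci, in BN207 also 0 of 9, against 0%, and in ZM22 0 of 9, against 0.00592%. At an unadjusted p under 0.05 the family had 0 loci in BN607 (2.12% of all loci), 0 in BN207 (1.89%) and 1 in ZM22 (1.09%), and DESeq2 called 0 of them in each variety. With the study's thresholds, an unadjusted p under 0.05 and a log2 fold change beyond 1, that 1 locus in ZM22 also passed, against 0.813% of all loci. The adjusted p of every locus was 1 in all varieties.

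The estimates themselves leaned below 0 in BN607 and ZM22. In W72_BN607 against C72_BN607, 9 of 9 log2 fold changes were below 0 with a median of -0.50, where 40.2% of all tested loci were below 0 and their median was 0.10. In W72_BN207 against C72_BN207, 2 of 9 were below 0 (median 0.38), against 55.4% of all loci (median -0.05), or 3 of 9 (median 0.30), against 55.8%, without the library labelled W72_BN207 replicate 1. In W72_ZM22 against C72_ZM22, 8 of 9 were below 0 (median -1.25), against 52.7% (median -0.02). These loci vary together across libraries, and none of them passed the test. Marker lists of other cell types moved too. Dividing-cell markers (237 loci tested, 0 called, with 0, 1 and 0 at an unadjusted p under 0.05 in BN607, BN207 and ZM22) had the opposite sign to the family in each variety. Their median was 0.18 in BN607 with 206 loci above 0, -1.30 in BN207 with 222 below 0, and 0.72 in ZM22 with 225 above 0. Without the library labelled W72_BN207 replicate 1 the BN207 median was -1.80. Storage and oil body transcripts (35 loci tested, 0 called, with 1, 10 and 14 at an unadjusted p under 0.05) had medians below 0 throughout, at -0.70, -2.09 and -2.72 in BN607, BN207 and ZM22, and -2.76 in BN207 without that library. Medians of the aleurone and scutellum list were 1.12, -0.16 and 0.26, and those of green tissue 0.50, -1.66 and -0.36. Without the library labelled W72_BN207 replicate 1 the BN207 medians of these lists were 0.23 and -3.69. The part of these cell types in the estimates was not tested.

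TraesCS2B02G459300 in ZM22 had the smallest unadjusted p of the family in these contrasts. Its log2 fold change was -1.69 (SE 0.69), past an unadjusted threshold of 0.05 but with an adjusted p of 1 in edgeR. The W72_ZM22 levels of 2.32 to 5.78 FPKM overlapped those of C72_ZM22 at 2.99 to 19.1 FPKM. TraesCS2D02G436700 was at -1.48 (SE 0.92) and TraesCS2A02G439400 at -1.25 (SE 0.98) in ZM22. TraesCS2A02G438300 was at -0.53 (SE 1.77), an estimate that says little with libraries of one group at 1.07 and 22.7 FPKM. Leaving out 1 library at a time moved it between -2.40 and 0.68.

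In BN207 the largest estimates were those of TraesCS2A02G439400, at 1.71 (SE 1.00), and TraesCS2D02G436700, at 1.02 (SE 0.92). When the library labelled W72_BN207 replicate 1 was left out, they were 2.13 (SE 1.06) and 1.39 (SE 0.99), again with no call, while TraesCS2A02G438300 went to -0.13 (SE 2.02), against -0.65 (SE 1.82) with the library. In BN607 the estimates of these loci were -0.82 (SE 0.98) and -1.04 (SE 0.92), and TraesCS2A02G438300 was at -2.44 (SE 2.01). The plastid loci had the smallest standard errors, 0.26 in each variety, and estimates between -0.33 and 0.10. Without the library labelled W72_BN207 replicate 1, TraesCS2D02G542600 was at 0.03 (SE 0.30) and TraesCS2A02G541400 at -0.19 (SE 0.29) in BN207. TraesCS4B02G272200 lay at -0.01 (SE 0.49) in BN607, 0.38 (SE 0.49) in BN207 and 0.31 (SE 0.49) in ZM22, and at 0.30 (SE 0.56) in BN207 without that library. The group 6 loci TraesCS6D02G245800 and TraesCS6B02G296400 were at 0.50 (SE 0.99) and 0.18 (SE 1.70) in BN207, and at 0.93 (SE 1.05) and 0.70 (SE 1.84) without it. TraesCS2B02G459300 was at 0.47 (SE 0.69) in BN207 with the library and at -0.0076 (SE 0.77) without it. With the library left out, 0 of 9 loci passed in BN207, as did 0% of all tested loci, and 0 had an unadjusted p under 0.05 (3.28%). Standard errors were 0.49 or more in each variety for 7 of the 9 loci, so a change of 1 on the log2 scale could not have been told from none.

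**Figure D4:**
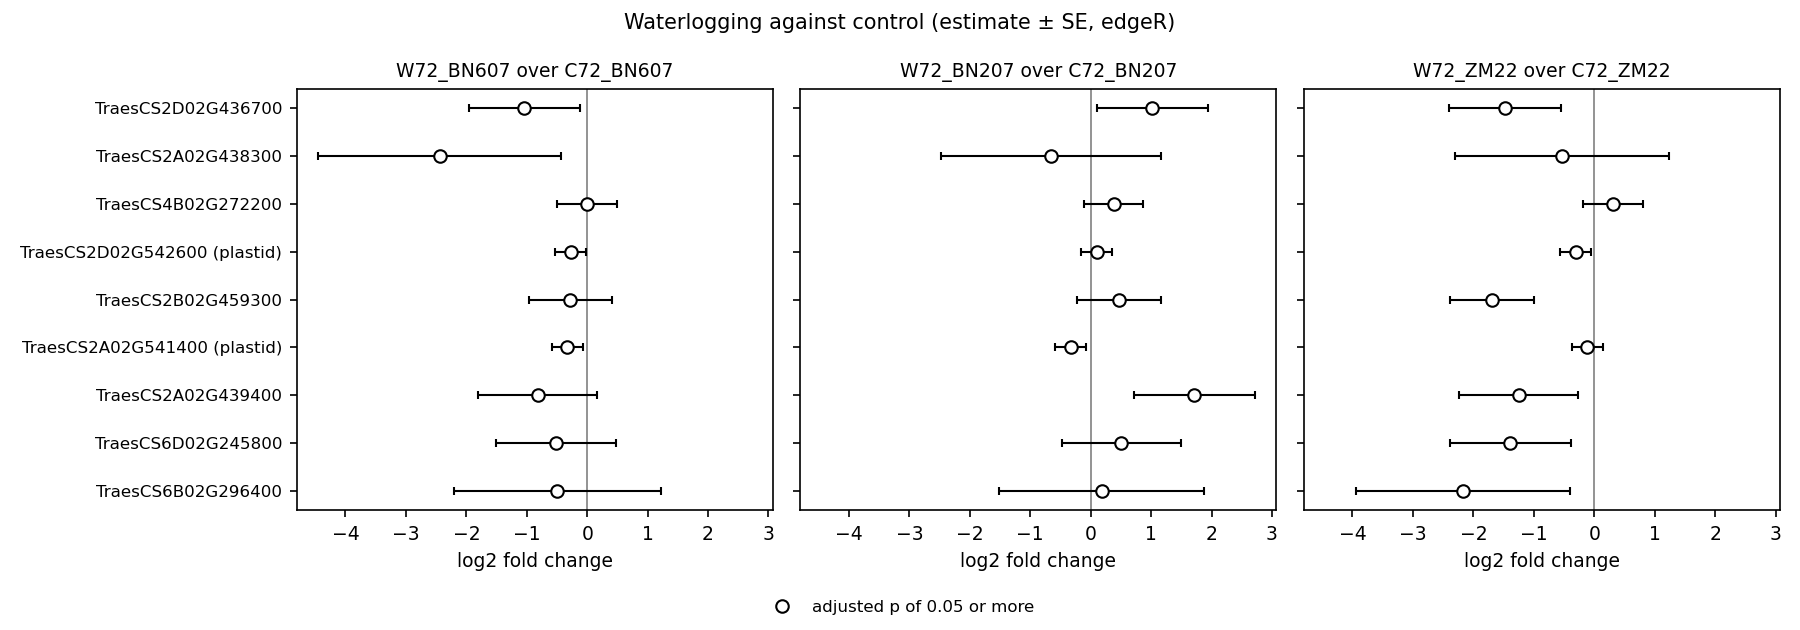
Log2 fold change of waterlogged over control libraries for the 9 tested alternative oxidase loci in BN607, BN207 and ZM22, as the edgeR estimate (point) with its standard error (bar) from 3 libraries a group. No point is filled, since every adjusted p was 1, and the estimates run between -2.44 and 1.71.

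Groups without overlap were few. In BN607 2 of 9 loci, TraesCS2D02G436700 and TraesCS2A02G438300, had all 3 waterlogged libraries below all 3 controls, where 9.44% of all tested loci did not overlap in either direction and 7.95% were lower. The gaps were small. For TraesCS2D02G436700 the highest waterlogged level was 1.3807 FPKM and the lowest control level 1.3827 FPKM. For TraesCS2A02G438300 they were 0.107 and 0.148 FPKM, near the floor. In BN207 there were 0 of 9 (3.62% of all loci). Without the library labelled W72_BN207 replicate 1, TraesCS2A02G439400 did not overlap, at 1.36 and 3.41 FPKM against controls of 0.455 to 0.799 FPKM. With 2 libraries left against 3, and no share of all loci computed for that setting, nothing is read from this gap. In ZM22 there was 1 of 9, TraesCS6B02G296400 (3.4% of all loci, 1.57% lower). That locus had 0.218, 0.192 and 0.550 FPKM in W72_ZM22 and 2.66, 0.636 and 0.642 FPKM in C72_ZM22, and a log2 fold change of -2.17 (SE 1.77).

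The responses were also set against each other between varieties. No difference of response passed for any of the 9 loci, where 0.00395% of all tested loci passed for BN607 against ZM22, 0.00395% for BN207 against ZM22 and 0% for BN607 against BN207. At an unadjusted p under 0.05 these contrasts held 0 (1.37% of all loci), 1 (1.49%) and 0 (1.36%) of the loci, and DESeq2 called 0 in each. The 1 locus was TraesCS2B02G459300, with a response 2.16 (SE 0.98) higher on the log2 scale in BN207 than in ZM22 and an adjusted p of 1 in edgeR, and it also met the study's thresholds, as 1.4% of all loci did. TraesCS2A02G439400 differed by 2.96 (SE 1.40) and TraesCS2D02G436700 by 2.49 (SE 1.30) in the same contrast. When the library labelled W72_BN207 replicate 1 was left out, these differences were 1.69 (SE 1.01) for TraesCS2B02G459300, 3.38 (SE 1.43) for TraesCS2A02G439400 and 2.87 (SE 1.34) for TraesCS2D02G436700. In that fit 0 of 9 loci passed for BN207 against ZM22 (0.00395% of all loci) and 0 for BN607 against BN207 (0.00197%), with 1, TraesCS2A02G439400, and 0 at an unadjusted p under 0.05 (1.6% and 1.18%). Averaged over the varieties, waterlogging called 0 of 9 loci, against 0.00197% of all tested loci, with 0 at an unadjusted p under 0.05 (2.72%) and 0 by DESeq2.

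Between the varieties, averaged over both treatments, 3 of the 4 group 2 loci passed as lower in BN607 than in ZM22 and 2 of the 4 as lower in BN207. In BN607 against ZM22, 4 of 9 loci were lower and 0 higher at an adjusted p under 0.05 in edgeR, where 10.6% of all tested loci passed and 6.8% were lower. In BN207 against ZM22, 2 of 9 were lower and 0 higher, where 4.63% of all tested loci passed and 2.21% were lower. Without the library labelled W72_BN207 replicate 1 only TraesCS2B02G459300 passed in BN207 against ZM22, 1 of 9, where 4.7% of all loci passed and 2.21% were lower, with 4 of 9 at an unadjusted p under 0.05 (16.9%). In BN607 against BN207, 0 of 9 passed, where 1.52% of all loci did, with 1 locus at an unadjusted p under 0.05 (9.53%) and 1 called by DESeq2, which called 4.67% of all loci. Without that library 1 of 9 passed in BN607 against BN207, the plastid locus TraesCS2A02G541400, where 4.11% of all loci did (1 at an unadjusted p under 0.05, against 13.9%). With the study's thresholds 4 of 9 loci passed in BN207 against ZM22, where 11% of all loci did. Both comparisons with ZM22 share the same 6 ZM22 libraries. TraesCS2B02G459300 and TraesCS2A02G438300 are in the tested set through ZM22, so these counts describe the family and give no support of their own. The libraries did not overlap for 2 of 9 loci in BN607 against ZM22 (2.79% of all loci were lower without overlap), for 1 of 9 in BN207 against ZM22 (1.61%) and for 0 of 9 in BN607 against BN207 (1.12% in either direction).

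The fitted difference of TraesCS2B02G459300 is a description, since the locus was at 1 FPKM or more in ZM22 alone and stood in the tested set through that variety. Its log2 fold change was -4.01 (SE 0.54, adjusted p = 0.000289), or 16.1-fold lower, in BN607 against ZM22. In BN207 against ZM22 it was -4.63 (SE 0.56, adjusted p = 0.000107), or 24.8-fold lower. With no filter on low values the values were -4.03 (adjusted p = 0.000274) and -4.63 (adjusted p = 9.92e-05). When the library labelled W72_BN207 replicate 1 was left out, the BN207 contrast gave -4.87 (SE 0.63, adjusted p = 0.000264). In the waterlogged libraries alone, a choice made after the values were seen, the log2 fold changes were -3.31 in BN607 and -3.56 in BN207 against ZM22, with adjusted p = 0.0671 and 0.0625.

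TraesCS2D02G436700 was 6.70-fold lower in BN607 than in ZM22 (log2 fold change -2.74, SE 0.68, adjusted p = 0.0204) and 6.06-fold lower in BN207 (-2.60, SE 0.68, adjusted p = 0.0423). Without the library labelled W72_BN207 replicate 1 the BN207 value was -2.41 (SE 0.73) and no longer passed (adjusted p = 0.0880), and the BN207 call was lost in 14 of 18 fits that left out 1 library, with adjusted p up to 0.119. The BN607 call was lost without any 1 of C72_ZM22 replicate 1, W72_BN607 replicate 2 and C72_BN607 replicates 1 and 2, with adjusted p up to 0.0648. The fitted difference of TraesCS2A02G438300 is likewise a description, since the locus stood in the tested set through ZM22. Outside that variety it reached 1 FPKM only in C72_BN207 replicate 1. TraesCS2A02G438300 fell by 6.36 on the log2 scale in BN607 against ZM22 (SE 1.60, adjusted p = 0.0215, or 0.0227 with no filter on low values), and its estimate for BN207 was -4.93 (SE 1.48, adjusted p = 0.0791), or -4.67 (adjusted p = 0.152) without W72_BN207 replicate 1. The call in BN607 did not outlast the removal of W72_BN607 replicate 3 or of any of the 4 libraries just named, with adjusted p up to 0.0751. TraesCS2A02G439400 missed the threshold, at -2.21 (SE 0.72, adjusted p = 0.0635) in BN607 and -1.85 (SE 0.71, adjusted p = 0.186) in BN207 (-1.64, adjusted p = 0.286, without W72_BN207 replicate 1).

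Outside the group 2 set, TraesCS2A02G541400 passed in 1 contrast. This plastid oxidase was 2.17-fold lower in BN607 than in ZM22 (log2 fold change -1.12, SE 0.19, adjusted p = 0.00171), a smaller difference than those of the group 2 set but with a standard error less than that of any of them. In BN207 against ZM22 it was at -0.34 (SE 0.18, adjusted p = 0.391), or -0.26 (SE 0.19, adjusted p = 0.529) without the library labelled W72_BN207 replicate 1. In BN607 against BN207 it was at -0.78 (SE 0.19, adjusted p = 0.0531), which became -0.85 (SE 0.19, adjusted p = 0.0187) without the library labelled W72_BN207 replicate 1. The second plastid locus, TraesCS2D02G542600, was at -0.36 (SE 0.18) in BN607 and -0.35 (SE 0.18) in BN207 against ZM22, with -0.38 (SE 0.20) in BN207 without that library. TraesCS4B02G272200 was at 0.15 (SE 0.35) in BN607 and 0.28 (SE 0.35) in BN207, or 0.23 (SE 0.38) without it. TraesCS6D02G245800 and TraesCS6B02G296400 lay between -1.41 and 1.04 with standard errors of 0.70 to 1.23, and in BN207 without that library at 1.25 (SE 0.72) and 0.34 (SE 1.24).

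**Figure D5:**
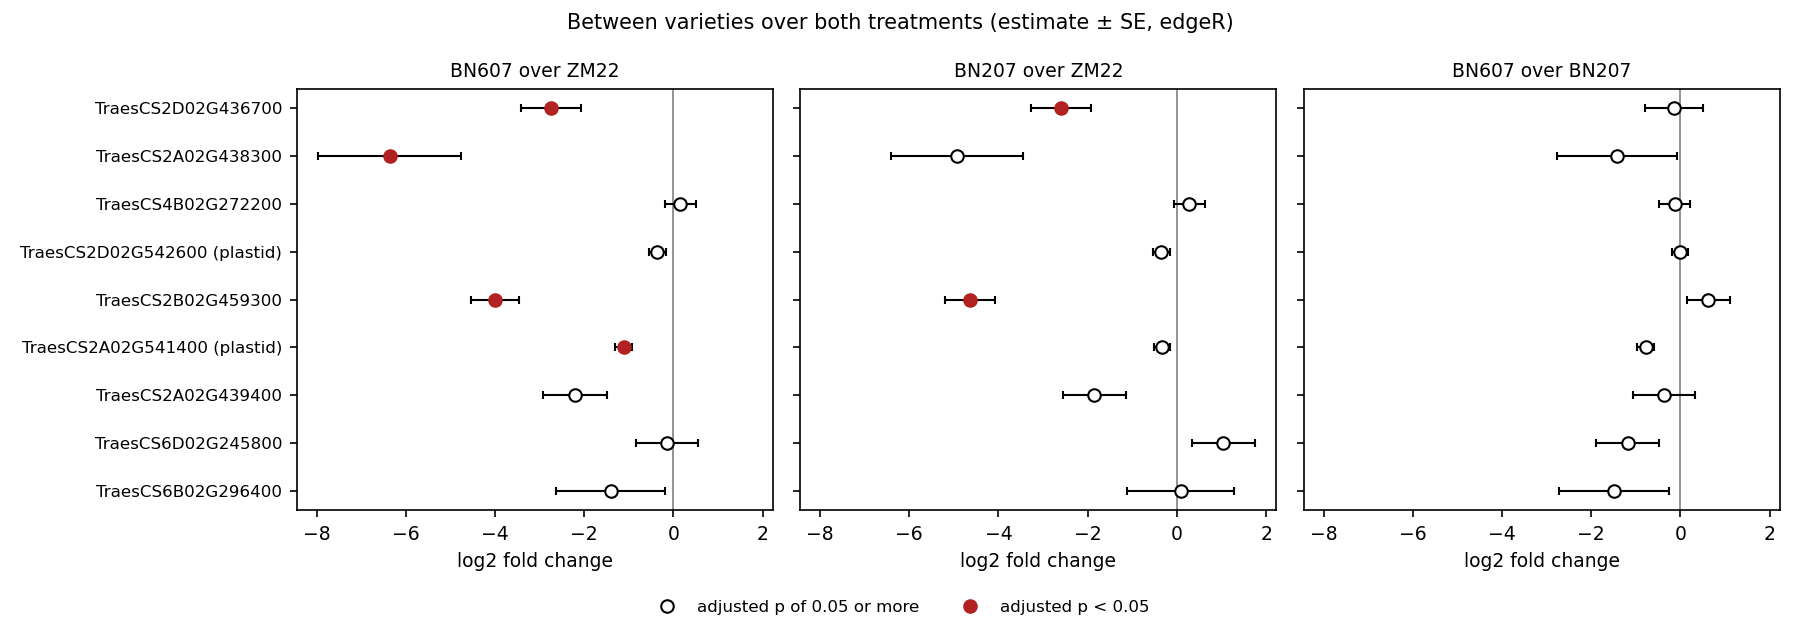
Log2 fold change between varieties over both treatments for the 9 tested alternative oxidase loci, as the edgeR estimate (point) with its standard error (bar) from 6 libraries a variety, filled where the adjusted p was under 0.05. Of the filled points 4 are in BN607 over ZM22 and 2 in BN207 over ZM22, all below 0, and TraesCS2B02G459300 is filled in both panels.

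Marker lists of other cell types are given beside these differences. Markers of dividing cells (core histones, B-type cyclins and cyclin-dependent kinases, 237 of 265 loci tested) had a median log2(FPKM + 1) of 2.45 to 6.03 in BN607, 1.39 to 5.40 in BN207 and 1.19 to 4.53 in ZM22, and 16 of the 237 were higher and 1 lower in BN607 than in ZM22, where 3.84% of all tested loci were higher. In BN207 7 of the 237 were higher than in ZM22, where 2.42% of all loci were, and 5 were without the library labelled W72_BN207 replicate 1. The median log2 fold change of the dividing-cell list against ZM22 was 1.82 in BN607 and 0.94 in BN207 (0.69 without that library). Over all tested loci it was 0.06 and 0.07. In BN607 219 of the 237 were above 0, and 138 had an unadjusted p under 0.05 in edgeR, against 14021 of 50656 loci. In BN207 216 were above 0 and 19 had such a p, against 8532 of 50656. The summed level of the list was 1609 to 21029 FPKM in BN607, 970 to 14018 FPKM in BN207 and 830 to 7728 FPKM in ZM22. Markers of aleurone and scutellum secretion (alpha-amylases, aleurain and cathepsin B-like proteases, 9 of 12 tested) had medians of 0.931 to 4.36, 3.27 to 7.79 and 5.36 to 9.26 in BN607, BN207 and ZM22, with summed levels of 319 to 3762, 1898 to 7761 and 1633 to 5190 FPKM, and 4 of the 9 were lower in BN607 than in ZM22, where 6.8% of all loci were. The median log2 fold change of the aleurone and scutellum list was -3.54 in BN607 against ZM22, with 9 of 9 below 0. In BN207 against ZM22 it was -0.95 with 6 of 9 below 0, or -0.66 without the library labelled W72_BN207 replicate 1. Within ZM22, libraries with dividing-cell medians of 1.19, 1.26, 1.61, 2.46, 3.86 and 4.53 had group 2 sums of 79.1, 38.6, 12.1, 41.6, 5.69 and 10.1 FPKM. The highest sum was thus at the lowest median, and the lowest sums were at the highest medians, 3.86 and 4.53. The sums did not fall in order throughout. That at a median of 2.46 (41.6 FPKM) was above that at 1.61 (12.1 FPKM). Likewise the sum at 4.53 (10.1 FPKM) was above that at 3.86 (5.69 FPKM). Of the dividing-cell loci 5, 5 and 13 were at 0 in all libraries of BN607, BN207 and ZM22, and of the aleurone loci 1, 2 and 2. The part of tissue make-up in the variety differences was not tested.

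The remaining marker lists, for storage (35 of 120 loci tested), green tissue (9 of 58) and root and shoot outgrowth (9 of 58), are given likewise. Storage and oil body loci summed to 25.7 to 873 FPKM in BN607, 150 to 2784 FPKM in BN207 and 499 to 5130 FPKM in ZM22, and their highest median, 4.39, was in C72_ZM22 replicate 1, the library with the most group 2 alternative oxidase. Green tissue markers summed to at most 61.6, 29.4 and 12.2 FPKM in BN607, BN207 and ZM22, and outgrowth markers to at most 58.7, 28.9 and 55.0 FPKM. Median log2 fold changes in BN607 against ZM22 were -2.14 for storage (27 of 35 below 0), 2.44 for green tissue (9 of 9 above 0) and 0.50 for outgrowth. In BN207 against ZM22 they were -0.37, 0.83 and -0.44, or -0.37, 0.16 and -1.73 without the library labelled W72_BN207 replicate 1. Their part in the alternative oxidase levels was not tested either.

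Loci of the other branches of mitochondrial electron transport are given beside all tested loci. Of all tested loci, 10.6% passed in BN607 against ZM22, 4.63% in BN207 against ZM22 and 1.52% in BN607 against BN207. At an unadjusted p under 0.05 there were 14021 of 50656 in BN607 against ZM22. With so few loci in each list, a count of 0 called does not set these branches apart from all loci. Of 7 tested cytochrome c oxidase subunits (of 26 listed) and 4 tested cytochrome bc1 complex subunits (of 4), which belong to the phosphorylating pathway that alternative oxidase bypasses, 0 passed in any variety contrast, with 1 cytochrome c oxidase subunit at an unadjusted p under 0.05 in BN607 against ZM22. Subunit 5C (TraesCS5B02G094200, 75.2 to 199 FPKM) was at -0.13 (SE 0.22) and subunit 6a (TraesCS5A02G406700, 50.3 to 156 FPKM) at 0.01 (SE 0.23) in BN607 against ZM22. The bc1 subunits 7 (TraesCS5A02G456800) and 9 (TraesCS1A02G250300) were at 0.04 (SE 0.24) and 0.02 (SE 0.31). Uncoupling proteins, carriers named for letting protons back across the inner membrane, passed in 0 of 5 cases (2 at an unadjusted p under 0.05 in BN607 against ZM22), with TraesCS4D02G134300 at -0.55 (SE 0.21, adjusted p = 0.105) and TraesCS4A02G179400 at -0.68 (SE 0.28, adjusted p = 0.132) in BN607 against ZM22.

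Alternative NAD(P)H dehydrogenases, which feed ubiquinone without pumping protons and can work in series with alternative oxidase, had 3 of 6 loci tested. Of these, 1 was lower in BN607 (6.8% of all tested loci were) and 1 in BN207 (2.21%) than in ZM22. TraesCS7B02G077600 (0.44 to 3.5 FPKM) was lower in both varieties than in ZM22, by a log2 fold change of -1.55 (SE 0.27, adjusted p = 0.00214) in BN607 and -1.31 (SE 0.27, adjusted p = 0.00979) in BN207. TraesCS7A02G172700 was at -0.71 (SE 0.27, adjusted p = 0.113) and -0.99 (SE 0.28, adjusted p = 0.0561). When the library labelled W72_BN207 replicate 1 was left out, both passed in BN207, TraesCS7B02G077600 at -1.38 (adjusted p = 0.0127) and TraesCS7A02G172700 at -1.15 (adjusted p = 0.0374). In that fit 2.21% of all tested loci were lower. The third tested locus went the other way, above 0 in both BN607 and BN207 against ZM22. Medians of the 3 loci, which are the values of TraesCS7A02G172700, were -0.71 and -0.99, against 0.06 and 0.07 over all tested loci.

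Among mitochondrial stress proteins, 13 of 49 loci were tested, 3 were lower in BN607 (6.8% of all tested loci were) and 2 in BN207 (2.21%) than in ZM22, and 0 were higher. All of these calls were BCS1-like chaperones, relatives of the yeast protein that inserts a subunit into complex III. TraesCS3D02G218100 was at -2.29 (SE 0.51, adjusted p = 0.0121) in BN607 and -2.48 (SE 0.52, adjusted p = 0.0122) in BN207, and TraesCS3A02G215000 at -1.88 (SE 0.48, adjusted p = 0.0244) and -1.82 (SE 0.48, adjusted p = 0.0461). The BCS1-B locus TraesCS1B02G464800 (merged with TraesCS1B02G465000, 0.47 to 41.1 FPKM) was at -3.77 (SE 0.89, adjusted p = 0.0158) in BN607 and -2.68 (SE 0.85, adjusted p = 0.0964) in BN207. Prohibitin-1 (TraesCS6A02G198500), a scaffold of the inner membrane, was at 0.68 (SE 0.38) and 0.37 (SE 0.37). Without the library labelled W72_BN207 replicate 1 only TraesCS3D02G218100 passed in BN207 (-2.37, adjusted p = 0.0296), and TraesCS3A02G215000 was at -1.68 (adjusted p = 0.0960). List medians were -0.66 and -1.59.

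Of 19 low oxygen loci, chiefly alcohol dehydrogenases of ethanol fermentation, 16 were tested, and 5 were lower in BN607 (6.8% of all tested loci were) and 1 in BN207 (2.21%) than in ZM22. Signs were mixed, with 7 above and 9 below 0 in BN607 (median -0.39) and 6 above and 10 below in BN207 (median -0.28). Without the library labelled W72_BN207 replicate 1 they were 4 and 12 in BN207 (median -1.73). The BN207 call, and 1 of the 5 in BN607, was the cinnamyl alcohol dehydrogenase TraesCS7B02G232400. When the library labelled W72_BN207 replicate 1 was left out, the count in BN207 was 0, with 7 at an unadjusted p under 0.05 (16.9% of all tested loci), and TraesCS7B02G232400 was at -2.68 (adjusted p = 0.0949). The ADH1A loci TraesCS4A02G202100 (101 to 1115 FPKM) and TraesCS4D02G103000 (81.1 to 1257 FPKM) were at -1.98 (SE 0.51, adjusted p = 0.0250) and -2.32 (SE 0.65, adjusted p = 0.0354) in BN607. Their values in BN207 were -1.86 (SE 0.51, adjusted p = 0.0539) and -2.14 (SE 0.65, adjusted p = 0.0808). The other calls were TraesCS7B02G232400, a cinnamyl alcohol dehydrogenase that the list took in by its name (-3.67, SE 0.77, in BN607 and -2.78, SE 0.74, in BN207), TraesCS4B02G106300 (-2.60, SE 0.69) and alcohol dehydrogenase 3 at TraesCS4D02G103300 (-3.51, SE 0.95), the last 2 in BN607. In BN607 against BN207, 0 loci of these 6 lists passed (1.52% of all tested loci did), with 2 stress proteins at an unadjusted p under 0.05 (9.53%). In the waterlogging contrasts 0 loci of the 6 lists passed in any variety, where at most 0.00592% of all tested loci did. In BN207 1 cytochrome c oxidase subunit and 1 stress protein had an unadjusted p under 0.05 (1.89% of all tested loci). List medians lay between -0.58 (stress proteins in BN607) and 0.44 (stress proteins in BN207).

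Loci most like the 3 alternative oxidases with the highest means were sought by the Pearson correlation of log2(FPKM + 1) over the 18 libraries. TraesCS2D02G436700 was matched most closely by TraesCS7B02G136100, a predicted protein (0.965), TraesCS3A02G226100, an unnamed product (0.962), and MSTRG.3607 (TraesCS1D02G072900), a putative WRKY33 transcription factor (0.959). The WRKY33 locus, at 0.443 to 3.53 FPKM in BN607 and BN207 and 1.48 to 11.9 FPKM in ZM22, kept a correlation of 0.873 within the 12 libraries of BN607 and BN207 and 0.943 within the 6 of ZM22. The same values were 0.915 and 0.944 for TraesCS7B02G136100 and 0.921 and 0.924 for TraesCS3A02G226100. All were picked as the closest matches over these same libraries, so the values within varieties are no support of their own. TraesCS2A02G438300 was matched by TraesCS1A02G072500, a speckle-type POZ-like protein (0.983), MSTRG.8611 (TraesCS2B02G459000), a predicted protein (0.976), and TraesCS5B02G336200, a predicted protein (0.970). These values fell to 0.642, 0.504 and 0.328 outside ZM22. TraesCS4B02G272200 followed other loci altogether, with MSTRG.9914 (TraesCS2D02G251500) at 0.854, thioredoxin-like protein 1 at MSTRG.5260 (TraesCS2A02G100900) at 0.841 and MSTRG.13314 (TraesCS3B02G149200) at 0.826.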

How the data were processed

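Poly(A) RNA of 18 wheat seed libraries (3 varieties, 2 treatments, 3 libraries a group) was analysed from the deposited table, grouped by the labels. The authors removed adapters with cutadapt, mapped the reads by HISAT on IWGSC RefSeq v1.0, and built one merged set of transcripts in StringTie (tool versions: not given in the sources used here). Deposited FPKM values were made by the authors with StringTie. The deposited estimated counts, whole numbers whose making from the assembly is not stated, keep a near-constant ratio to FPKM (median variation 0.599%), and 49.0% of those from 1 to 19 are multiples of 4, against 21.1% of an even spread. They follow coverage rather than single reads, so no counting interval is given.

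The 50656 loci that reached 1 FPKM in 3 or more libraries received TMM scaling factors and a quasi-likelihood fit with 1 mean for each of the 6 groups (edgeR 4.0.16, R 4.3.3). Loci below 0.05 after Benjamini-Hochberg adjustment across the whole tested table were called. Variety contrasts average both treatments. Alternatives were DESeq2 1.42.0, limma 3.58.1 on log2(FPKM + 1) and log2(FPKM + 0.1), other filters and scaling, counts divided by 4, the thresholds of the study (log2 fold change beyond 1 at an unadjusted p under 0.05), a replicate block and leaving out each library. The fit was tested on simulated data. Loci described as alternative oxidase were named, with the 3 loci most correlated with each of the 3 highest, and from each pathway list the 2 highest loci and up to 5 called ones. Members and lists were chosen with earlier results of these data known. The libraries are biological replicates by the study's account; p-values cover only their spread. Sequences are not printed here.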

Additional observations from a re-analysis of the deposited data

How the results depend on the processing

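No waterlogging or response contrast called an alternative oxidase under any alternative except the study's own thresholds, which took in 1 locus in ZM22 and 1 for the BN207 response against that of ZM22. Between varieties, the study's thresholds gave 4 loci lower in BN207 than in ZM22 (main value 2), and counts divided by 4 and DESeq2 each gave 1 locus in BN607 against BN207 (main value 0). Tests chosen after the values were seen gave 0 loci in the waterlogged libraries alone and 1 in the control libraries alone, for BN607 and for BN207 against ZM22. With 1 library left out, the counts ran between 2 and 5 in BN607 against ZM22, 1 and 3 in BN207 against ZM22, and 0 and 1 in BN607 against BN207, and stayed at 0 in the other contrasts. The call of TraesCS2D02G436700 in BN207 against ZM22 was lost in 14 of 18 such fits, and in BN607 in 4 of 18 (C72_ZM22 replicate 1, W72_BN607 replicate 2, C72_BN607 replicates 1 and 2).

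A replicate block gave 1 locus in BN207 against ZM22, where the value for TraesCS2D02G436700 was -2.69 (adjusted p = 0.0577). Equal replicate numbers did not pair the libraries: deviations from group means correlated above 0.1 in 3 of 9 pairs (-0.511 to 0.584). The block changed no other count by over 1.5 times.

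Some uncalled waterlogging estimates turned sign. By limma, TraesCS2A02G438300 was at 0.023 in ZM22 (pseudocount 0.1), TraesCS2A02G541400 at 0.0083 and 0.015 in ZM22, TraesCS2D02G542600 at -0.0041 and -0.011 in BN207 (pseudocounts 1 and 0.1), and TraesCS6D02G245800 at -0.25 in BN207 (0.1). With 1 library left out, ranges that crossed 0 were, in ZM22, -2.40 to 0.68 for TraesCS2A02G438300, -0.011 to 0.49 for TraesCS4B02G272200 and -0.22 to 0.0034 for TraesCS2A02G541400. In BN207 they were -0.37 to 1.57 for TraesCS2D02G436700, -2.87 to 3.57 for TraesCS2A02G438300, -0.045 to 0.30 for TraesCS2D02G542600, -0.0076 to 0.98 for TraesCS2B02G459300, -1.54 to 1.06 for TraesCS6D02G245800 and -1.77 to 4.74 for TraesCS6B02G296400. In BN607 they were -0.60 to 0.31 for TraesCS4B02G272200, -0.62 to 0.087 for TraesCS2B02G459300, -1.21 to 0.46 for TraesCS2A02G439400 and -1.72 to 0.090 for TraesCS6B02G296400. Averaged over varieties they were -1.95 to 0.19 for TraesCS2A02G438300, -0.68 to 0.31 for TraesCS2A02G439400 and -1.48 to 0.69 for TraesCS6B02G296400. The cause was not tested.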

Other observations

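The deposited annotation pairs 7 of the 10 alternative oxidase loci (the group 2 and group 6 sets) with the KEGG entry of threonine-tRNA ligase, an enzyme of protein synthesis. The same entry is given to 23 loci in all, of which 2 are described as threonine-tRNA ligase. Of the loci with that entry and no alternative oxidase description, 6 lie within 2 Mb of a group 2 alternative oxidase, and each is described only as a predicted protein. They were looked at after values had been seen, and no name is given to them here.

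One of them, MSTRG.8611 (TraesCS2B02G459000, 2B 653610681 to 653611670), lies 135 kb from TraesCS2B02G459300. It was at most 0.396 FPKM in the 12 libraries of BN607 and BN207, against 2.45, 0.785 and 23.9 FPKM in W72_ZM22 and 13.7, 12.2 and 0.216 FPKM in C72_ZM22. Only C72_ZM22 replicate 3 fell into the range of those varieties. As with TraesCS2B02G459300, it passed the filter on low values through ZM22, and no test is given for a locus picked after its values were seen. Another, MSTRG.6569 (TraesCS2A02G438200, 2A 689630218 to 689631640), lies 79.1 kb from TraesCS2A02G438300. It had at most 1.81 FPKM in BN607 and BN207, against 1.38, 2.49 and 27.0 FPKM in W72_ZM22 and 11.3, 7.54 and 0.243 FPKM in C72_ZM22. The third locus in the tested set, TraesCS2B02G459100, reached at most 2.35 FPKM, in C72_ZM22.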
